A study of Mus musculus with 18 samples.

Results

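The transcripts described here are those of the BCL2 family, whose members decide whether the mitochondrial route to cell death is opened. The list held 10 genes, 4 anti-apoptotic (Bcl2, Bcl2l1, Mcl1 and Bcl2l2) and 6 pro-apoptotic (Bcl2l11, Bid, Bad, Bax, Bak1 and Bmf). A gene was included where a probe set carried its symbol alone in the platform annotation, and 9 of the 10 were found among 19938 genes in all, with 1 probe set each. Bax had no such probe set and was not analysed here. The list was drawn up by function, not by level, though with earlier results of these data known.

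Each of 18 mice gave 1 tumour, taken from the spleen at the end stage of disease, frozen, homogenised whole and hybridised to 1 Affymetrix array. All 18 were C57BL/6 mice with Eμ-Myc, a transgene whose heavy chain enhancer forces Myc expression in B lineage cells. The groups were 9 tumours wild type for Prdm11 (WT) and 9 tumours of Prdm11 knockout mice (KO). The labels give neither the age of the mice nor the deleted part of Prdm11, and tumour cells were not stated to have been sorted from other spleen cells.

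BCL2 itself, BCL-XL (Bcl2l1), MCL1 and BCL-W (Bcl2l2) hold cells alive by binding their pro-apoptotic relatives. BIM (Bcl2l11), BID, BAD and BMF share with them only the short BH3 helix and act as death signals, and BAX and BAK (Bak1) form the pores in the outer mitochondrial membrane. Myc drives both division and apoptosis in B cells, and forced expression of Bcl2 or loss of Bcl2l11 is known to speed lymphoma in Eμ-Myc mice.

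Levels are log2 of the deposited RMA intensity of a probe set, and differences are KO minus WT on that scale. Levels of different probe sets are not comparable, so each gene was compared only with itself across tumours. The array medians lay between 5.14 and 5.38. Prdm11 overlapped between the groups, from 4.84 to 5.66 in WT and from 4.87 to 5.49 in KO tumours, and the means differed by -0.12 (SE 0.12, exact permutation p = 0.311). The labels do not place its probe set relative to the deletion, so this is no check of the genotypes. WT tumour 3 stood apart, since its array correlated with the others at a median of 0.924, where every other array reached at least 0.957. Of 8 genes listed as markers of all B cells, 7 were measured, and their mean ran from 6.59 to 7.86 in WT tumours and from 6.82 in KO tumours, with a KO median of 7.68. WT tumour 8 had the lowest mean and the lowest levels of Cd79a (3.69) and Ebf1 (4.25), which encode a B cell receptor chain and an early B lineage factor. The other measured genes of the list were lowest elsewhere. Cd79b was lowest in KO tumour 8, and Pax5, Blnk, Cd22 and Cd72 in WT tumours 5, 3, 1 and 9 in that order.

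No BCL2 family transcript differed between the genotypes past the threshold, and the range of each gene overlapped between WT and KO tumours. With limma and Benjamini-Hochberg adjustment over 19938 genes, 0 of 9 members had an adjusted p below 0.05, where 0.00502% of all genes did. At an unadjusted p below 0.05 the members again numbered 0 of 9, against 6.7% of all genes, 2.83% higher and 3.87% lower in KO tumours. Of the anti-apoptotic members 1 had a positive and 3 a negative difference, with a median of -0.11. Among the pro-apoptotic members 3 were positive and 2 negative, with a median of 0.03, and the median over all genes tested was -0.03. The smallest adjusted p among the members was 0.77. The 95% intervals of the differences bound what may have been missed, from -0.80 at the lowest (Bcl2l1) to 0.69 at the highest (Bcl2).

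**Figure D1:**
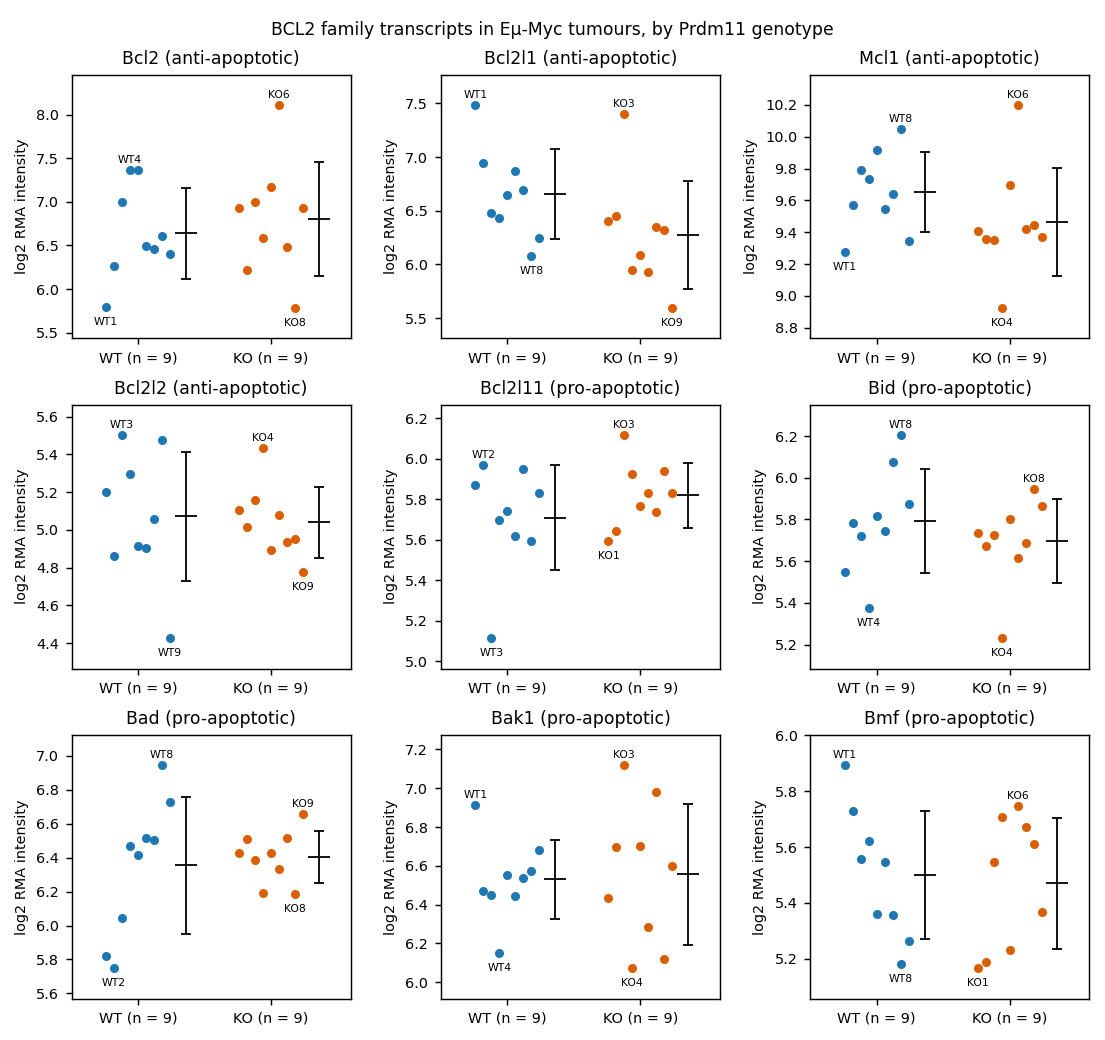
Log2 RMA intensity of the 9 measured BCL2 family genes in each tumour (points, 9 WT in blue and 9 KO in orange), with the group mean and SD as black bars and the highest and lowest tumour of each group named. The groups overlap for every gene, and KO tumour 6 is the highest of all for Bcl2 (8.11) and Mcl1 (10.20).

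**Figure D2:**
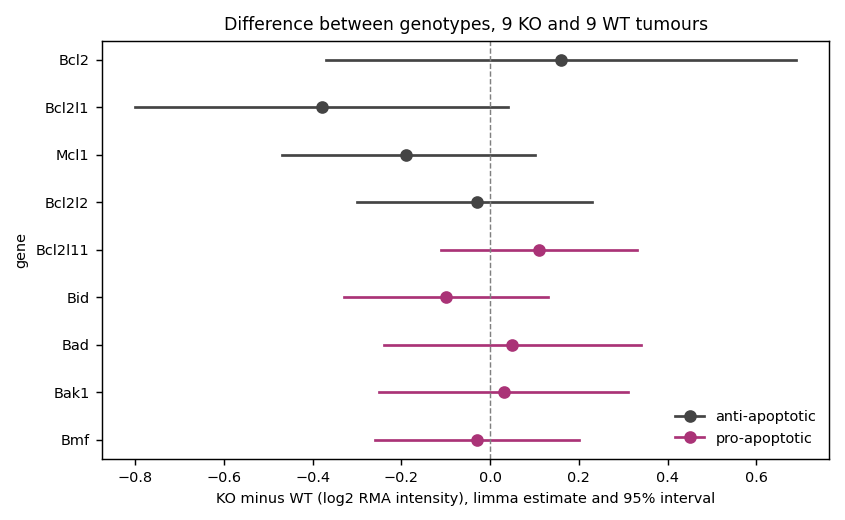
KO minus WT difference of each gene (points) on the log2 scale with its 95% interval from limma (lines), with anti-apoptotic genes in grey and pro-apoptotic genes in purple. Every interval includes 0, and the interval of Bcl2l1 runs from -0.80 to 0.04.

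Bcl2l1 had the largest difference of the 9. BCL-XL, its product, protects many cell types and is best known in blood for keeping maturing red cell precursors and platelets alive. Its level ran from 6.08 through a median of 6.64 to 7.48 in WT tumours, and from 5.60 through 6.32 to 7.40 in KO tumours. WT tumour 1 (7.48) and KO tumour 3 (7.40) were the highest of all, KO tumours 9, 6 and 4 lay below every WT tumour, and 8 of 9 KO tumours lay below the WT median. The mean was 6.65 ± 0.42 (SD, n = 9) in WT and 6.28 ± 0.50 (SD, n = 9) in KO tumours. The means differed by -0.38 (SE 0.20, 95% interval -0.80 to 0.04, limma p = 0.0758, adjusted p = 0.77, exact permutation p = 0.105). With 1 tumour left out the Bcl2l1 difference ran from -0.52 (KO tumour 3, limma adjusted p = 0.766) to -0.27 (WT tumour 1, limma adjusted p = 0.717). The means of several cell type marker lists also lay apart between the genotypes, in both directions, which was not tested here. The erythroid list, of red cell precursor genes, ran from 7.21 to 9.05 in WT and from 6.47 to 7.86 in KO tumours, and all 7 of 9 listed genes that were measured had negative differences, with a list difference of -0.55. The list difference was -0.33 for neutrophil markers (0 of 8 genes positive), -0.31 for T cell (1 of 7), -0.24 for NK (1 of 6) and -0.22 for macrophage markers (1 of 8). It was 0.47 for markers of all B cells (7 of 7 positive) and 0.51 for pro-B and pre-B markers (9 of 9). In whole tissue, fewer cells of a type and less RNA per cell cannot be told apart. With the erythroid list as a covariate the Bcl2l1 difference was -0.02 (limma adjusted p = 0.979), and with that of pro-B and pre-B genes, an alternative added after seeing the data, it was -0.45 (limma adjusted p = 0.906).

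The windows before the annotated transcript starts of Bcl2l1, Bcl2 and Mcl1 are shown because these 3 genes were the ones that varied with cell markers across tumours. Bcl2l1 has 3 such windows, and the one printed was picked because it holds a GATA match, which the other 2 do not. The sequences are from RefSeq on the GRCm38.p6 build, 250 bases ending just before the start, 5′ to 3′ on the gene's strand. Capitals mark matches, on either strand, to the 6-base motif GGGCGG of GC boxes or to any of the 4 forms of the site that GATA factors read, which are AGATAA with AGATAG and TGATAA with TGATAG.
Bcl2l1, chr2:152828490-152828739, minus strand: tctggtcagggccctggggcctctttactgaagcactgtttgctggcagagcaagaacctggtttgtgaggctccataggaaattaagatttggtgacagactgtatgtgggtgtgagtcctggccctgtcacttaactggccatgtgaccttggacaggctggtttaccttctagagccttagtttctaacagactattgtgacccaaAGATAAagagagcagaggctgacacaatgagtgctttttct
Bcl2, chr1:106714291-106714540, minus strand: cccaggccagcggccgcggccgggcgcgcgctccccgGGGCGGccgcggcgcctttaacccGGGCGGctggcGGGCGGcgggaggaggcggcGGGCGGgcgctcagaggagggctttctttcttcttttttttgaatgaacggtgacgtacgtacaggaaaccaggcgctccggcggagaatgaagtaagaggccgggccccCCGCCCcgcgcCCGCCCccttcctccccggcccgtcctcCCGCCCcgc
Mcl1, chr3:95658471-95658720, plus strand: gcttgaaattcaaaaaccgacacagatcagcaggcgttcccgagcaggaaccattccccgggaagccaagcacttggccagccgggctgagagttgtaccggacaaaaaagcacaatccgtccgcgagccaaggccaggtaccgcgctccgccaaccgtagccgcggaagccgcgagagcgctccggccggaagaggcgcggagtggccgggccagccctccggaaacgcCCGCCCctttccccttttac
All 10 listed genes were matched in the promoter table, with 16 windows in all. A GATA form was found in 1 of the 3 Bcl2l1 windows and in the Bid window, 2 of 16, against 26.5% of all 32851 windows of this length. GGGCGG stood in 8 of 16 windows, 7 times in that of Bcl2, against 32.7% of all windows. The E-box CACGTG, which MYC reads with MAX, stood in 1 of 16, that of Bax, against 6.02% of all windows. These are matches of letters in a short window and describe nothing about binding.

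Bcl2 was the most variable member. It encodes the founding survival protein, which is abundant in mature lymphocytes. Its level ran from 5.79 through a median of 6.49 to 7.37 in WT tumours, and from 5.78 through 6.93 to 8.11 in KO tumours, a 5.02-fold range over the 18. KO tumour 6 stood above every WT tumour and KO tumour 8 (5.78) just below the lowest, WT tumour 1 (5.79). The pooled SD within genotypes was 0.59, at percentile 94.3 among all genes, and that of Bcl2l1 was 0.46, at percentile 87.8. The mean was 6.64 ± 0.52 in WT and 6.80 ± 0.66 in KO tumours (SD, n = 9 each), which differed by 0.16 (SE 0.25, limma adjusted p = 0.919), and without KO tumour 6 the difference was -0.0008.

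Mcl1 encodes a short-lived survival protein on which B cell precursors and Myc-driven lymphomas depend. It ran from 9.28 through a median of 9.64 to 10.05 in WT tumours, and from 8.93 through 9.41 to 10.20 in KO tumours. KO tumour 6 was the highest and KO tumour 4 the lowest of all, and 7 of 9 KO tumours lay below the WT median. The mean was 9.65 ± 0.25 in WT and 9.46 ± 0.34 in KO tumours (SD, n = 9 each), which differed by -0.19 (SE 0.14, limma adjusted p = 0.82). The difference was -0.33 with the erythroid covariate (limma adjusted p = 0.355, the smallest over all settings and members) and -0.09 with the pro-B and pre-B covariate. It was -0.28 without KO tumour 6 (limma adjusted p = 0.645), -0.12 without KO tumour 4 and -0.10 without both WT tumour 3 and KO tumour 4. Bcl2l2, which encodes BCL-W, was dim, with a mean at percentile 39.9 of all genes. It ran from 4.43 through 5.06 to 5.50 in WT tumours and from 4.78 through 5.02 to 5.43 in KO tumours, and no KO tumour lay outside the WT range. Its difference was -0.03 (SE 0.13), and it turned to 0.02 without WT tumour 3 and without WT tumour 8.

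Among the death signals, Bcl2l11 and Bid encode BIM and BID, which can activate the pore formers directly. Bcl2l11 ran from 5.11 through 5.74 to 5.97 in WT tumours and from 5.59 through 5.83 to 6.12 in KO tumours. The lowest value belonged to WT tumour 3, well under the next lowest WT tumour at 5.59. Its difference was 0.11 (SE 0.11, 95% interval -0.11 to 0.33) and was 0.04 without that tumour, which is the array that stands apart. Bid ran from 5.37 through 5.79 to 6.20 in WT tumours and from 5.23 through 5.72 to 5.95 in KO tumours, with KO tumour 4 below every WT tumour. Its difference was -0.10 (SE 0.11, 95% interval -0.33 to 0.13), and with 1 tumour left out it ran from -0.15 (WT tumour 4) to -0.04 (KO tumour 4), with -0.05 without WT tumour 8 and -0.06 without WT tumour 7. It was -0.18 with the erythroid covariate and -0.04 with that of pro-B and pre-B genes.

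Bad and Bmf encode sensitisers that neutralise the survival proteins, BAD under control of growth factor signalling and BMF after loss of attachment or growth factors. Bad ran from 5.75 through 6.47 to 6.94 in WT tumours and from 6.18 through 6.43 to 6.66 in KO tumours. The KO tumours lay inside the WT range, with an SD of 0.15 against 0.40 in WT tumours, a contrast of spread that was not tested. Its difference was 0.05 (SE 0.14). Bmf ran from 5.18 through 5.55 to 5.89 in WT tumours and from 5.17 through 5.55 to 5.75 in KO tumours, the narrowest range of the 9 at 1.65-fold, and the KO minus WT value was -0.03 (SE 0.11).

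Bak1 encodes BAK, a pore former. It ran from 6.15 through 6.54 to 6.91 in WT tumours and from 6.07 through 6.60 to 7.12 in KO tumours. KO tumours 3 and 7 lay above every WT tumour and KO tumours 4 and 8 below. Its difference was 0.03 (SE 0.13), and it was -0.01 after quantile normalization. The differences of Bad, Bak1, Bmf and Bcl2l2 were all smaller than their SE, and each changed sign when some single tumours were left out. Of the members, Bmf, Bcl2l11 and Bcl2l1 lie on chromosome 2, as Prdm11 does, with 150, 294 and 504 genes of the array between them and Prdm11 in the GRCm38.p6 gene table.

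The balance of survival and death transcripts overlapped between genotypes. Each gene was taken as its deviation from its own mean over the 18 tumours, and the mean deviation of 5 pro-apoptotic genes was subtracted from that of 4 anti-apoptotic genes. The result is a relative measure of transcripts and carries no p. It ran from -0.44 through a median of 0.00 to 0.45 in WT tumours and from -0.36 through -0.07 to 0.40 in KO tumours. WT tumour 3 (0.45), KO tumour 6 (0.40) and WT tumour 4 (0.38) leaned most to survival genes, and WT tumour 9 (-0.44) and KO tumour 9 (-0.36) most to death genes. The balance was above 0 in 5 WT and 4 KO tumours. The mean was 0.06 ± 0.27 in WT and -0.06 ± 0.25 in KO tumours (SD, n = 9 each), which differed by -0.12 (SE 0.12). Without WT tumour 3, whose array stands apart, the balance difference was -0.07. It was -0.18 without WT tumour 9 and also without KO tumour 6. The survival genes differed by -0.11 (SE 0.10) and the death genes by 0.01 (SE 0.05).

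**Figure D3:**
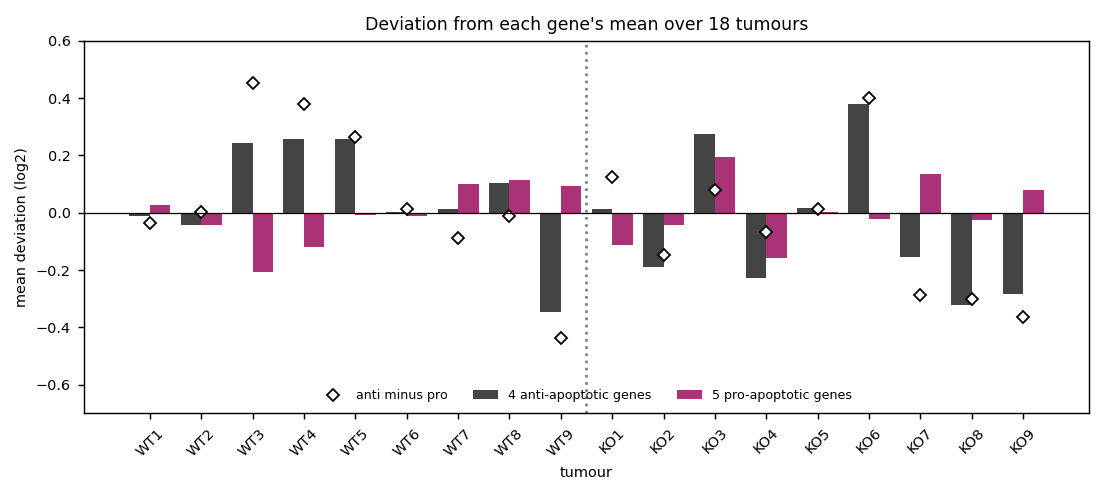
Mean deviation, on the log2 scale, of the 4 anti-apoptotic genes (grey bars) and the 5 pro-apoptotic genes (purple bars) from each gene's mean over 18 tumours, with their difference as diamonds. WT tumours stand left of the dotted line and KO tumours right of it, and the diamonds reach 0.45 in WT tumour 3 and -0.44 in WT tumour 9.

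The genes that set the balance differed between tumours. In KO tumour 6, Bcl2 lay 1.39 and Mcl1 0.64 above their means, while Bcl2l1 lay at -0.54. In KO tumour 3, Bcl2l1 lay 0.93 above its mean with Bak1 at 0.575, and the balance was 0.08. In WT tumour 9, all 4 survival genes were below their means, Bcl2l2 by the most at -0.63. In WT tumour 3, Bcl2l11 lay at -0.65 and Bcl2l2 at 0.45.

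Few members varied together. Over the 36 pairs, Pearson's r ran from -0.71 to 0.60 with a median of -0.08, and 1 pair passed after adjustment over the 36, while 4 had an unadjusted permutation p below 0.05. That pair was Bad and Bmf (r = -0.71, permutation p = 0.00081, adjusted p = 0.0292, with 0.0137 to 0.18 over the other settings). Their Spearman's rho was -0.64 (permutation p = 0.005, adjusted p = 0.18). By mean level Bmf lay at percentile 52.8 of all genes and Bad at 73.5, and Bmf had the narrowest range of the members. Without WT tumours 1 and 2, the farthest on Bad, r was -0.57. It was -0.87 within WT (exact permutation p = 0.0022) and -0.52 within KO tumours (exact permutation p = 0.156), and the gap between the genotypes was not tested. The adjusted permutation p of this pair was no longer below 0.05 after quantile normalization (r = -0.60), after median centring (r = -0.64), or without WT tumour 1, 2, 8 or 9.

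Bcl2 and Mcl1 had the highest positive r, 0.60 (permutation p = 0.00829, adjusted p = 0.149), with a rho of 0.57 (permutation p = 0.0151, adjusted p = 0.192). It was 0.42 without KO tumour 6, 0.44 without KO tumours 6 and 8, the farthest on Bcl2, and 0.69 with the genotype means removed (permutation test, adjusted p = 0.0358). The other 4 of the 6 pairs with the smallest p did not pass, with r of -0.55 for Bid and Bmf (adjusted permutation p = 0.197), -0.49 for Bcl2l1 and Bad (0.35), 0.46 for Bcl2l1 and Bak1 (0.396) and 0.43 for Bid and Bad (0.466). The r of Bcl2l1 and Bak1 was 0.29 without KO tumour 3 and 0.05 without WT tumour 1 and KO tumour 3, and that of Bid and Bad was 0.24 without WT tumour 8.

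Bcl2l1, Bcl2 and Mcl1 varied across tumours with markers of particular cells, and the other 6 members had no correlation past the threshold. Each of 9 members was set against 10 marker lists, which made 90 correlations over 18 tumours, and 9 passed after adjustment. Tumours fell into separate clusters, across a wide gap in the list mean, on the T cell list and on the pro-B and pre-B list. For these the correlation in the larger cluster, of 14 and 15 tumours, is given beside that over all 18. Use of the larger cluster was chosen after the data were seen and left 5 of the 90 past the threshold.

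Bcl2l1 rose with the erythroid list (r = 0.80, permutation p = 0.00013, adjusted p = 0.0039, with 0.00225 to 0.034 over the other settings). Spearman's rho was 0.78 (permutation p = 0.00037, adjusted p = 0.0333), the only rho of the 90 past the threshold. Without WT tumour 1 and KO tumour 6, the farthest on the list, r was 0.69. It was 0.85 within WT (exact permutation p = 0.00476) and 0.69 within KO tumours (exact permutation p = 0.0333). WT tumour 1 had the highest erythroid mean of all and KO tumour 3 the highest among KO tumours, and these were also the 2 tumours highest in Bcl2l1. However, WT tumours 2, 6 and 4 had higher erythroid means (8.24, 8.21 and 7.90) than KO tumour 3 (7.86). Their Bcl2l1 levels were lower, at 6.94, 6.87 and 6.44 against 7.40. Without KO tumour 3, r was 0.84, the highest with 1 tumour left out.

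Bcl2 rose with the mature B list (r = 0.82, permutation p = 0.0001, adjusted p = 0.0039, with 0.0009 to 0.104 over the other settings), where rho was 0.64 (permutation p = 0.00463, adjusted p = 0.104). It was 0.94 within WT (exact permutation p = 0.000449) and 0.76 within KO tumours (exact permutation p = 0.0273), and 0.63 without WT tumour 4 and KO tumour 6. Mcl1 had an r of 0.71 with the same list (permutation p = 0.00106, adjusted p = 0.0171) and a rho of 0.69 (permutation p = 0.00208, adjusted p = 0.0624). Without KO tumour 6 this r was 0.56 (adjusted permutation p = 0.219) and without WT tumour 5 it was 0.68 (0.0509), so neither passed, and r fell to 0.55 when WT tumour 4 and KO tumour 6 were both left out.

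Both genes also rose with the NK list. For Bcl2 r was 0.71 (permutation p = 0.00098, adjusted p = 0.0171), with a rho of 0.58 (permutation p = 0.0134, adjusted p = 0.173), and 0.53 without WT tumour 4 and KO tumour 6. For Mcl1 r was 0.70 (permutation p = 0.00114, adjusted p = 0.0171), with a rho of 0.56 (permutation p = 0.0173, adjusted p = 0.173), and 0.65 without the same tumours. Neither passed without WT tumour 5 (adjusted permutation p = 0.0509 for both) or without KO tumour 6 (0.0951 for Bcl2 and 0.115 for Mcl1), and Mcl1 did not after quantile normalization (r = 0.55, adjusted permutation p = 0.142). WT tumour 4 was the highest WT tumour and KO tumour 6 the highest KO tumour on the mature B, T cell and NK lists alike, so these lists are not independent of each other. The NK list ran from 4.52 to 7.38 in WT and from 4.73 to 6.99 in KO tumours, and the mature B list from 5.55 to 7.32 and from 5.88 to 8.01.

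On the T cell list, WT tumours 4, 5 and 8 and KO tumour 6 lay between 7.16 and 7.55 and the other 14 between 5.35 and 6.38. The same 4 tumours were the highest on the NK list, at 7.38, 6.76, 6.27 and 6.99, with KO tumour 5 next at 6.09. The NK list had no such wide gap, so its correlations were kept over all 18. Mcl1 ran from 9.74 to 10.20 in those 4 tumours and from 8.93 to 9.79 in the 14. Within the 14, r of Mcl1 with the list was 0.57 (permutation p = 0.0396, adjusted p = 0.32), rho was 0.46 (permutation p = 0.102), and r was 0.16 without the 2 tumours farthest on the list. For Bcl2 within the 14, r was 0.31 (permutation p = 0.281, adjusted p = 0.641). With both clusters joined over all 18, r with the T cell list was 0.83 for Mcl1 (permutation p = 2e-05, adjusted p = 0.0018). Its rho was 0.72 (permutation p = 0.00119, adjusted p = 0.0535). For Bcl2 the r over all 18 was 0.67 (permutation p = 0.00229, adjusted p = 0.0294), with a rho of 0.54 (permutation p = 0.0223, adjusted p = 0.183). On the pro-B and pre-B list, WT tumour 1 and KO tumours 1 and 4 lay between 8.27 and 8.38 and the other 15 between 5.14 and 7.40. Mcl1 ran from 8.93 to 9.41 in those 3 and from 9.35 to 10.20 in the 15, within which r was -0.45 (permutation p = 0.0895, adjusted p = 0.445). Over all 18, which joins both clusters, this r was -0.65 (permutation p = 0.00367, adjusted p = 0.0413). The rho over all 18 was -0.57 (permutation p = 0.0158, adjusted p = 0.173), and the pair no longer passed in 15 of 24 alternatives.

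Bcl2 had an r of -0.64 with a list of mitotic genes (permutation p = 0.0045, adjusted p = 0.045) and a rho of -0.47 (permutation p = 0.0523, adjusted p = 0.336). It did not pass with the larger clusters in the family (adjusted permutation p = 0.0675), after median centring (0.0698), or without any of WT tumours 1 to 6 and 8 and KO tumours 2, 4, 6, 7 and 9. This r was -0.43 without KO tumour 6, whose mitotic mean of 7.81 was the lowest of all, and -0.26 without WT tumour 1 and KO tumour 6, so the relation rests on those tumours. The part of other spleen cells in the levels of Bcl2 and Mcl1 was not tested.

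**Figure D4:**
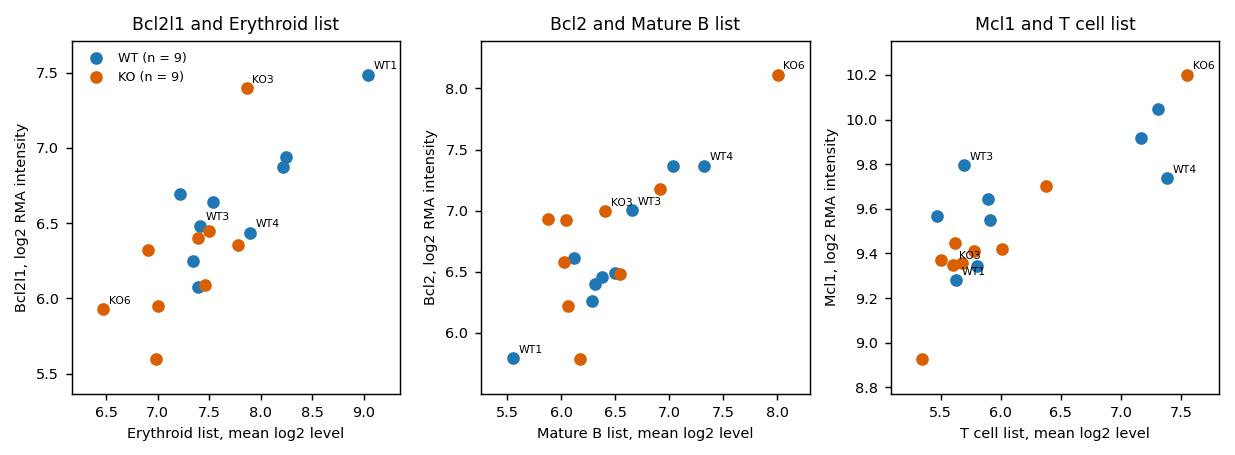
Log2 level of Bcl2l1, Bcl2 and Mcl1 in each tumour (blue WT, orange KO) against the mean log2 level of the erythroid, mature B and T cell marker lists. Bcl2l1 and the erythroid list have an r of 0.80 and Bcl2 and the mature B list 0.82, while on the T cell list 4 tumours lie apart from 14.

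**Figure D5:**
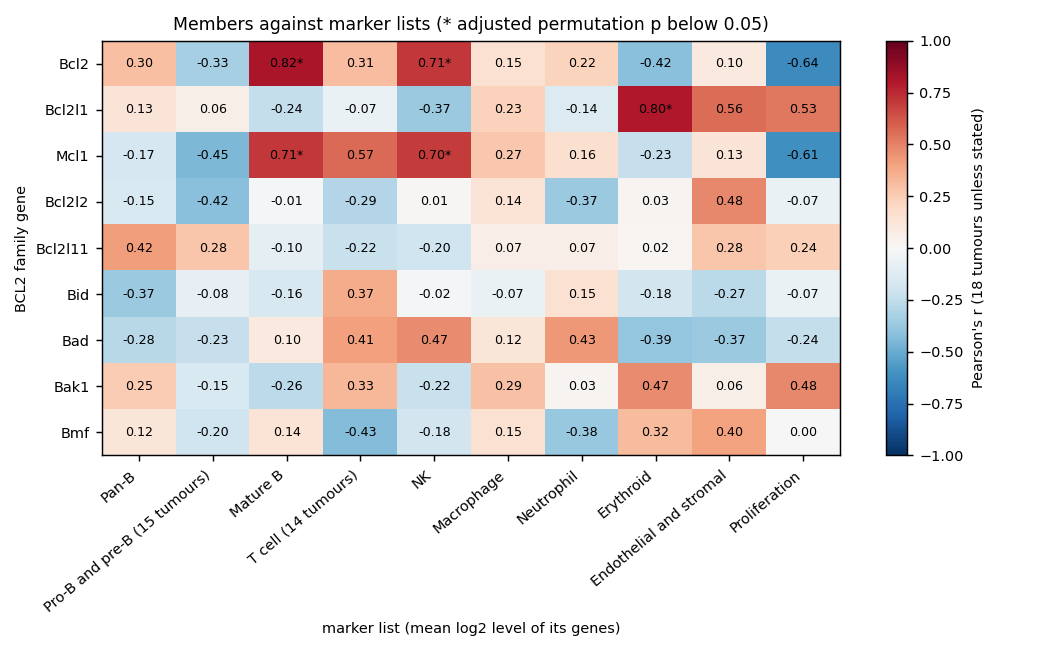
Pearson's r of each member (rows) with the mean log2 level of each marker list (columns), over 18 tumours or over the larger cluster where the column says so, with stars at an adjusted permutation p below 0.05. The 5 stars stand at Bcl2 and Mcl1 with the mature B and NK lists and at Bcl2l1 with the erythroid list.

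The genes most like each member across the 18 tumours, with genotype means removed, differed from member to member. Those nearest Bcl2l1 were Ube2o (r = 0.93), a ubiquitin-conjugating enzyme, Trim58 (0.90), a ubiquitin ligase of late red cell precursors, and Dmtn (0.89), which encodes the red cell membrane protein dematin. Nearest Bcl2 were Klrb1b (0.91), an inhibitory receptor of NK cells, Gcnt2 (0.89) and N4bp2l1 (0.88). Nearest Mcl1 were A530032D15Rik (0.89), Cd52 (0.89), a surface glycoprotein of lymphocytes, and H2-Aa (0.87), an MHC class II chain. The first places went to Plekhb1 (0.87) for Bcl2l2, Foxp3 (0.85) for Bcl2l11, Mak16 (0.85) for Bid, Tomm40l (0.89) for Bad, Ndufv1 (0.83) for Bak1 and Sec14l5 (0.86) for Bmf. These are the highest of 19937 values for each member and carry no test.

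The wider apoptosis genes gave 0 of 48 measured members past the adjusted threshold of limma, and 2 higher and 2 lower at an unadjusted p below 0.05, against the 2.83% and 3.87% of all genes. Their median difference was -0.03, the same as that of all genes. Over all genes, 11799 of 19938 differences were negative, beside which the sign counts of the lists stand. Among 7 measured BCL2 homologues, 6 were negative. Bcl2l15, a weakly pro-apoptotic relative, averaged 6.30 ± 0.47 in WT and 5.68 ± 0.43 in KO tumours (SD, n = 9 each), which differed by -0.62 (SE 0.20, limma adjusted p = 0.667), and Bcl2l10 had -0.15 (SE 0.11). None of 6 further BH3-only genes was below an unadjusted limma p of 0.05. Bnip3l, which drives the clearance of mitochondria in maturing red cells, had -0.32 (SE 0.18, limma adjusted p = 0.781), and Hrk, a BH3-only gene best known from neurons, had -0.13 (SE 0.11).

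Of 13 measured genes of caspase activation, 7 had positive and 6 negative differences. Those with an unadjusted limma p below 0.05 numbered 0, against 6.7% of all genes. Apaf1, the apoptosome scaffold, had 0.23 (SE 0.12, limma adjusted p = 0.775), and Casp9, the caspase it activates, had -0.17 (SE 0.10). Of 8 death receptor genes, 6 were negative, among them the TRAIL receptor gene Tnfrsf10b, dim at 4.54 in WT tumours, with -0.28 (SE 0.13, limma adjusted p = 0.729). Casp8, the initiator caspase of that route, had 0.16 (SE 0.11). Of 14 regulators, 9 were positive. Ywhaz, a 14-3-3 protein that holds BAD in the cytosol, averaged 10.15 ± 0.18 in WT and 10.47 ± 0.20 in KO tumours (SD, n = 9 each), which differed by 0.32 (SE 0.10, limma adjusted p = 0.665), with 4 KO tumours above every WT tumour. Huwe1, a ubiquitin ligase of MCL1, had 0.44 (SE 0.21, limma adjusted p = 0.738).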

How the data were processed

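Per the labels, RNA of 18 homogenised tumours was hybridised to Affymetrix arrays. Per the submitters' processing notes, RMA gave the deposited probe set intensity values, which proved to be linear (1.63 to 14996) where log2 had been expected. They were transformed to log2 here, with no pseudocount. The version of RMA and the build behind the deposited values are not named in the labels or notes. The number of arrays limits precision.

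Of 35556 probe sets, 21789 had 1 gene symbol, 1621 several and 12146 none. Each gene took its brightest probe set by mean, which gave 19938 genes. Genotypes were compared with limma 3.58.1 in R 4.3.3 (lmFit and eBayes, no covariate), with Benjamini-Hochberg adjustment over all genes and a threshold of 0.05. Correlations used two-sided permutation tests with 100000 resamples over tumours, and within a genotype all permutations. Python 3.11.15, numpy 2.4.6 and scipy 1.17.1 were used, and the steps were tested on simulated data.

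The members and lists were chosen with earlier results of these data known. All members were named, as were the wider genes past the threshold or otherwise the 2 of smallest p per list, the genes most alike, and up to 6 pairs per family of correlations, with 3 more past the threshold added in the second after their values were seen. Alternatives covered scaling, probe set choice, dim genes, replicate numbers, variance model, array weights, composition covariates and left-out tumours. The 9 measured members made 36 pairs.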

Additional observations from a re-analysis of the deposited data

Results flagged for a closer look

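In 20 sets of 9 values (9 members and the balance, in each genotype), a single tumour stood apart by Dixon's criterion 3 times, where chance gives about 1 in 20. Bcl2l1 in KO tumour 3 was 7.40, with the next KO tumour at 6.45. Bcl2l11 in WT tumour 3 was 5.11, with the next WT tumour at 5.59. Bid in KO tumour 4 was 5.23, with the next KO tumour at 5.61.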

How the results depend on the processing

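The 9 member differences kept their direction in 243 of 260 alternative results. That count includes settings that leave the estimate unchanged and so could not turn its direction. These were averaging over probe sets, the filter of dim genes, the replicate block, the variance model and the exact permutation test. Past the adjusted threshold of limma the count was 0, and the smallest limma adjusted p was 0.355. The direction turned for Bak1 (-0.01) after quantile normalization, and for Bcl2 (-0.09), Bad (-0.08) and Bmf (0.05) with the erythroid covariate. With 1 tumour left out the differences ran from -0.0008 to 0.29 for Bcl2, -0.11 to 0.02 for Bcl2l2, -0.03 to 0.12 for Bad, -0.04 to 0.09 for Bak1 and -0.07 to 0.02 for Bmf. Members at an unadjusted p below 0.05 numbered 1 after quantile normalization, with array weights and with the pro-B and pre-B covariate (Bcl2l1 each time), 1 with the erythroid covariate (Mcl1), and 0 to 1 with 1 tumour left out (Bcl2l1 without WT tumour 8 or KO tumour 3, Mcl1 without KO tumour 6). Over all genes the count past the threshold was 1, and 0 with the replicate block, over all probe sets, with the pro-B and pre-B covariate and without WT tumour 3 and KO tumour 4, the last 2 settings chosen after the data were seen, and 0 to 1 with 1 tumour left out. Member pairs past the threshold numbered 0 by rho, after quantile normalization and after median centring, 2 with genotype means removed, and 0 to 1 with 1 tumour left out. Correlations with marker lists past the threshold numbered 9, against 1 by rho, 5 with the larger clusters and 3 to 9 with 1 tumour left out (3 without WT tumour 5, 4 without KO tumour 6). The causes were not tested. The balance difference ran from -0.18 to -0.07 with 1 tumour left out. The labels give each mouse its own number, and same-numbered tumours had correlations of deviations from -0.23 to 0.49, with 4 of 9 above 0.1 and 1 of 9 WT tumours closest to its own number. They share only a number, and the replicate block left 0 members past the threshold.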
